A study of Mus musculus with 8 samples.

Results

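The genes described here are 40 cell cycle and proliferation genes in CD103+ CD11b+ cDC. These conventional dendritic cells take up antigen in the gut and bring it to the draining lymph nodes. They were listed by name, 5 for the G1 phase, 17 for S phase and 18 for mitosis. A gene was measured where a probe set of the microarray named that gene alone, which held for 38 of the 40 (5, 16 and 17), among 22180 genes in all. Ccne2 and Ccnb1 were not analysed here.

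Flow cytometry sorted the cells from mesenteric lymph nodes of male C57BL6 mice aged 8 weeks and fed control chow. The wild-type group (genotype wild type, 4 arrays) and the transgenic group (hBcl-2 transgene, named DChBcl-2 in the labels, 4 arrays) were littermates, and both had the same strain, sex, age and diet. The transgene is human BCL2, a protein that blocks the mitochondrial pathway of apoptosis, under the promoter of CD11c, an integrin gene that dendritic cells express, so it is not limited to the sorted subset. For every array 2 to 3 samples had been pooled, so a replicate is a pool and n = 4 in both groups. Which animals entered a pool is not stated, and p-values therefore measure the spread between pools, which may be technical. The probes are made for mouse genes, so these data do not check the human transgene.

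The deposited values are log2 intensities after RMA, which removes background, makes the arrays' distributions alike and gives 1 value per probe set. The array medians lay between 5.04 and 5.15. A gene was called dim where its mean over the 8 arrays was at or below 5.33, the 95th percentile of 1409 olfactory, vomeronasal and trace amine receptor genes. By that measure 34 of the 38 genes were above background, and Cdc6, Birc5, Bub1 and Kif20a were dim. Transgenic replicate 4 correlated least with its group (mean r = 0.974 over genes, against 0.980 to 0.983 for the other 3 transgenic and 0.986 to 0.988 for the wild-type arrays). It also had the highest median (5.15) and the narrowest spread of levels over genes, an SD of 1.94 against 2.03 to 2.07 on the other arrays. Of the markers of cDC, 8 were measured and all 8 were above background, Ccr7 at 12.99 in wild-type and 13.06 in transgenic arrays. Their log2 folds, transgenic minus wild type, were positive for 2 and negative for 6, with a median of -0.17. None passed the test described below, and Irf8 had the lowest (-0.49, SE 0.15; limma adjusted p = 0.161). The genes of the sorting markers were near the background level on the arrays, Itgae (CD103) at 5.66 and 5.40 and Itgam (CD11b) at 5.57 and 5.58, while 8 of 10 genes listed as markers of CD11b+ cDC were above background, Notch2 at 8.94 and 9.02 and Irf4 at 8.67 and 8.56 among them. Of that list Clec4a4 and Mgl2 were dim, and Esam fell (log2 fold -0.62, limma adjusted p = 0.0320).

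A cell enters the cycle when cyclins D and their kinases CDK4 and CDK6 phosphorylate the RB protein, which frees E2F factors to switch on the genes of DNA replication. The MCM helicase is loaded on origins, and DNA is copied in S phase. A second wave of genes, controlled by B-MYB, FOXM1 and the DREAM complex, builds the mitotic spindle and separates the chromosomes. The promoters of these genes often hold elements called CHR and CCAAT box. Precursors of cDC divide, and cDC divide some more in tissues, while mature cDC that have migrated to a lymph node divide little. In pooled cells, fewer cycling cells and less RNA per cycling cell cannot be told apart.

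E2F motifs and the CHR were found in different shares of the S phase and mitosis genes, and the promoters of 4 genes are shown as examples. For 31 of the 38 measured genes RefSeq (GRCm38.p6) gave a window of 300 bases, or several for Ccnd3, Mcm7 and Uhrf1, from 250 before to 50 after the gene start. Shown are Mki67 and Cdk6, the genes that changed, Cdk1 for mitosis and Mcm6 for S phase. Capitals mark matches on either strand to the E2F motif (TTTGGCGC, TTTCCCGC, TTTCGCGC or TTTGCCGC), the CHR (TTTGAA) or the CCAAT box (CCAAT), where neighbouring or overlapping matches run together.
Mki67: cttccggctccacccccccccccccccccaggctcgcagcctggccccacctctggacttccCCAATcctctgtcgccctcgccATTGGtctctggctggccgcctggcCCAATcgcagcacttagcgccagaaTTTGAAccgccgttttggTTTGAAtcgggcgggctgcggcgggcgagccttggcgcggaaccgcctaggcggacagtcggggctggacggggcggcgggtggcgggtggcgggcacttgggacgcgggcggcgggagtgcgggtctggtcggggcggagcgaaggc
Cdk6: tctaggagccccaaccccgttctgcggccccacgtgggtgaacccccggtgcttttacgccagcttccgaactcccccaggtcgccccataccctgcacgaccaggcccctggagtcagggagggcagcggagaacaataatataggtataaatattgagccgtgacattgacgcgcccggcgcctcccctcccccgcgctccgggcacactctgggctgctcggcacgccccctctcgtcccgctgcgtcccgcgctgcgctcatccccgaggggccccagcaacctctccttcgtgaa
Cdk1: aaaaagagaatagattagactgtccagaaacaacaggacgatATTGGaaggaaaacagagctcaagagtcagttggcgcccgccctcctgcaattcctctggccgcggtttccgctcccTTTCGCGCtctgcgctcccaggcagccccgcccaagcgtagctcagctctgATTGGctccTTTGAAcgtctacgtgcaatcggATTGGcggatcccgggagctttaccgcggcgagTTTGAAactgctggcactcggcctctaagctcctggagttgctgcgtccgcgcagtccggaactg
Mcm6: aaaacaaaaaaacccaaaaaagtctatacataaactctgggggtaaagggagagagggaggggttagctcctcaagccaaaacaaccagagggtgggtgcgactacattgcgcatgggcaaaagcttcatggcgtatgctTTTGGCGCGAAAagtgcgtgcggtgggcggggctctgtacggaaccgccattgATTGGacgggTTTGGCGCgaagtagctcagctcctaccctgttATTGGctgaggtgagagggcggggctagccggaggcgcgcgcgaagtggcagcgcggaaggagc
The Mki67 window (chr7:135716330-135716629, minus strand) holds 3 CCAAT boxes followed by 2 CHR matches and no match to the E2F motif. That of Cdk1 (chr10:69352863-69353162, minus strand) holds 1 E2F match, 2 CHR and 3 CCAAT boxes, and that of Mcm6 (chr1:128359656-128359955, minus strand) holds 3 E2F matches, 2 of them overlapping, and 2 CCAAT boxes. The Cdk6 window (chr5:3343643-3343942, plus strand) holds none of these letters. Cdk1 and Mcm6 are not typical of their groups. Cdk1 is the only mitosis gene with an E2F match, and Mcm6 has the most E2F matches of the S phase genes with a window.

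The E2F motif was found in 8 of 15 S phase genes and in 1 of 13 mitosis genes with a window, against 2.60% of 27025 genes and 2.26% of 32851 promoters. A gene with several windows was counted where any of them held a match. Mcm7 and Uhrf1 were counted in this way, since not every window of theirs held the E2F motif. CHR was found in 9 of 13 mitosis genes, Mki67, Top2a, Ccnb2, Cdc20 and Plk1 among them, and in 1 of 15 S phase genes, Mcm2, against 20.2% of genes and 17.9% of promoters. The CCAAT box was found in 11 of 13 mitosis and 10 of 15 S phase genes, against 41.1% of genes and 37.4% of promoters. A match is a string of letters and was not tested as a binding site.

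**Figure D1:**
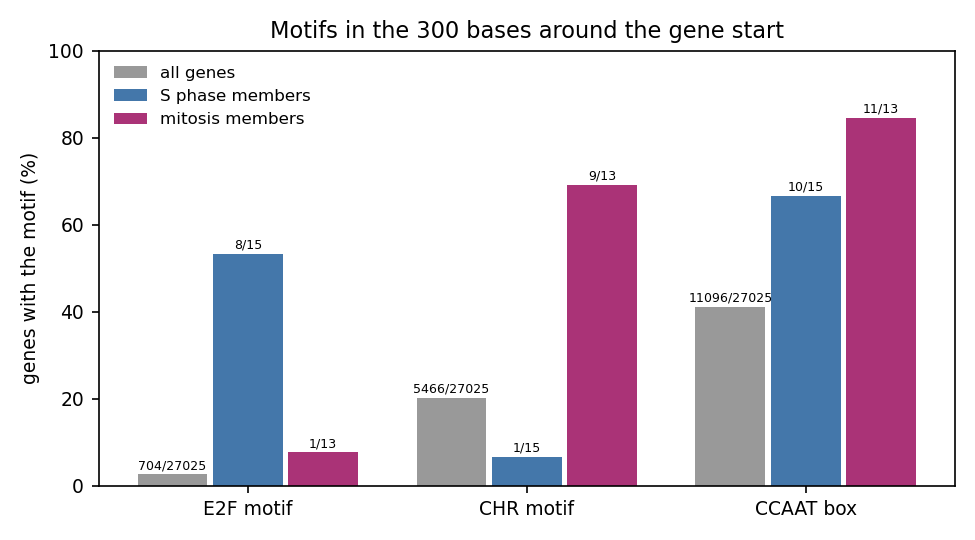
Share of genes (%) whose 300-base promoter window holds an E2F motif, a CHR or a CCAAT box, for all genes with a window (grey), S phase genes (blue) and mitosis genes (purple), with counts above the bars. The E2F motif stands in 8 of 15 S phase genes and the CHR in 9 of 13 mitosis genes.

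Mki67, which encodes the proliferation marker Ki-67, and Cdk6, a kinase that starts the cycle in G1, fell in transgenic cDC. None of the 38 genes rose. Mki67 was 2.19-fold lower and Cdk6 1.80-fold lower, and the other 36 genes did not pass the test. The test was limma's moderated test over all genes with Benjamini-Hochberg adjustment and a threshold of 0.05. It called 1.69% of all genes, 0.848% lower and 0.839% higher in transgenic arrays. Against that background, 2 of 38 genes are too few to read as a property of the list. By group, 1 of 5 G1, 0 of 16 S phase and 1 of 17 mitosis genes fell. An unadjusted p below 0.05 in limma, in either direction, was reached by 3 G1 genes (2 lower and 1 higher), 5 S phase genes (2 lower and 3 higher) and 1 mitosis gene (lower), against 13.2% of all genes. The median log2 fold, transgenic minus wild type, was -0.66 for G1, 0.02 for S phase and -0.15 for mitosis genes, against -0.0016 over all genes, and the groups were not tested against each other. With 5 G1 genes, that median is the log2 fold of Ccnd1 alone, which did not pass. The G1 log2 folds ran from -0.85 to 0.66, 3 negative and 2 positive, so the median is not a shared shift of the group. Without transgenic replicate 1 or 4 the G1 median was -0.91 or -0.42.

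**Figure D2:**
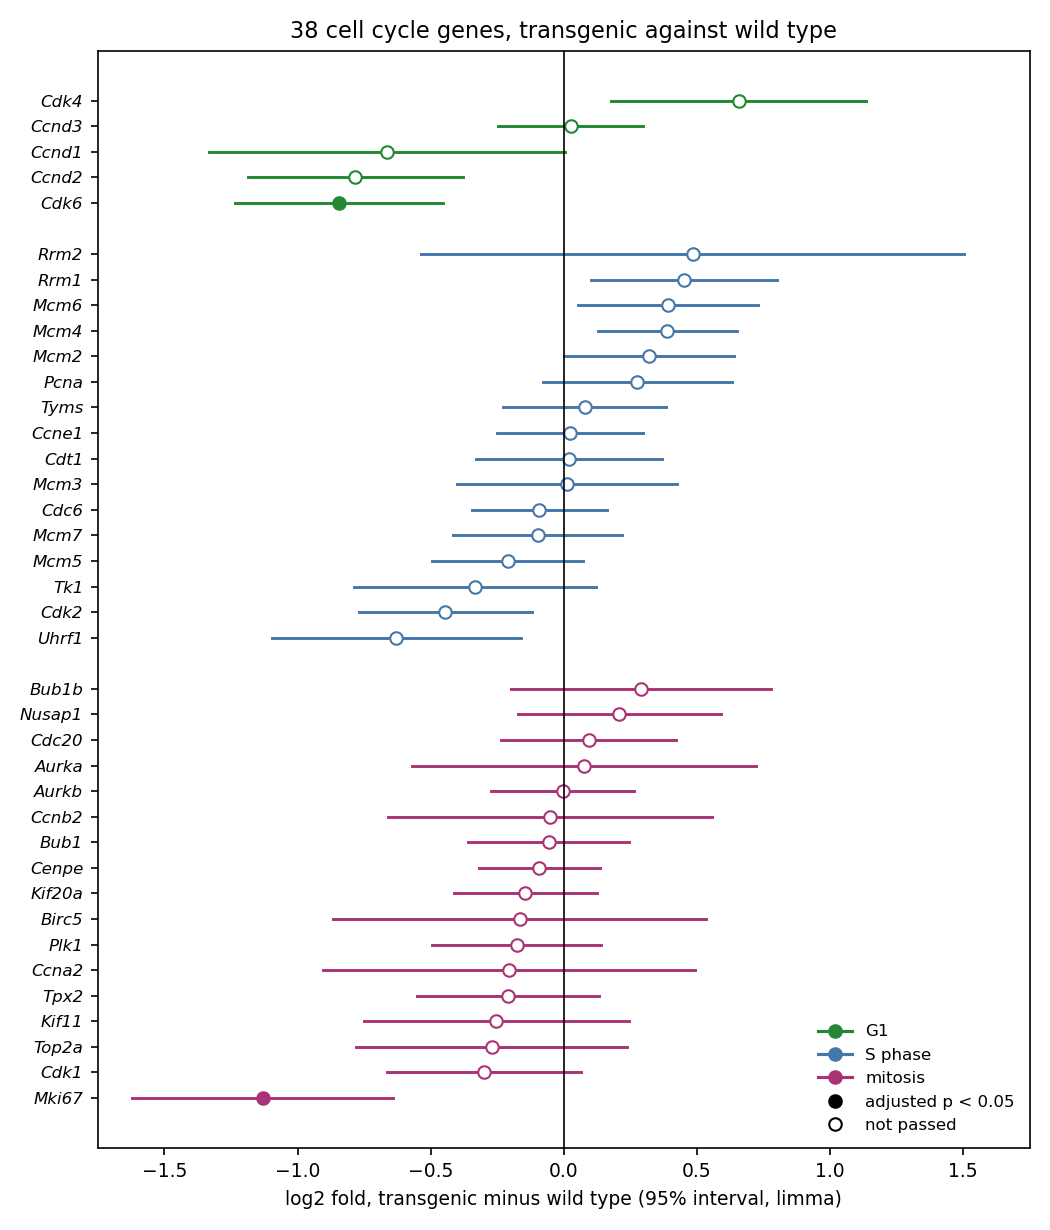
Log2 fold (transgenic minus wild type) with its 95% interval from limma for 38 genes, ordered within G1 (green), S phase (blue) and mitosis (purple), with filled points past the threshold. Mki67 and Cdk6 carry the filled points, and 13 of 17 mitosis genes lie below 0, most with intervals that cross it.

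The G1 genes are the kinases Cdk4 and Cdk6 and the 3 D cyclins that bind them. Cdk6 had levels of 8.64, 8.45, 8.94 and 8.18 on the wild-type arrays and 8.01, 7.50, 7.56 and 7.76 on the transgenic arrays. All 4 transgenic arrays lay below all 4 wild-type arrays. Its log2 fold was -0.85 (SE 0.18; 95% interval -1.24 to -0.45; limma adjusted p = 0.0448). Ccnd2 encodes cyclin D2, the partner of CDK4 and CDK6 that many blood cells use. Its levels were 11.16, 10.73, 10.59 and 10.93 in wild-type and 10.49, 9.89, 10.17 and 9.73 in transgenic arrays, again without overlap. The log2 fold of Ccnd2 was -0.78 (SE 0.18) and narrowly missed the threshold (limma adjusted p = 0.0660).

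Ccnd1, which encodes cyclin D1, was spread widely among transgenic pools. It stood at 9.16, 8.64, 8.71 and 9.04 in wild type and at 8.97, 8.68, 7.75 and 7.49 in transgenic arrays, where replicates 1 and 2 lay within the wild-type range and replicates 3 and 4 below every wild-type array. Its log2 fold of -0.66 (SE 0.30) did not pass (limma adjusted p = 0.384). Ccnd3, for cyclin D3, was at 7.62 ± 0.20 and 7.65 ± 0.09 (SD, n = 4). Cdk4, the close relative of Cdk6, lay on the other side of 0 from it. Its levels were 6.39, 7.41, 7.02 and 7.28 in wild-type and 7.62, 8.04, 7.53 and 7.53 in transgenic arrays, which did not overlap. The log2 fold of Cdk4 was 0.66 (SE 0.22) and did not pass (limma adjusted p = 0.190), and wild-type replicate 1 was the lowest of the 8. Without that array it was 0.44.

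**Figure D3:**
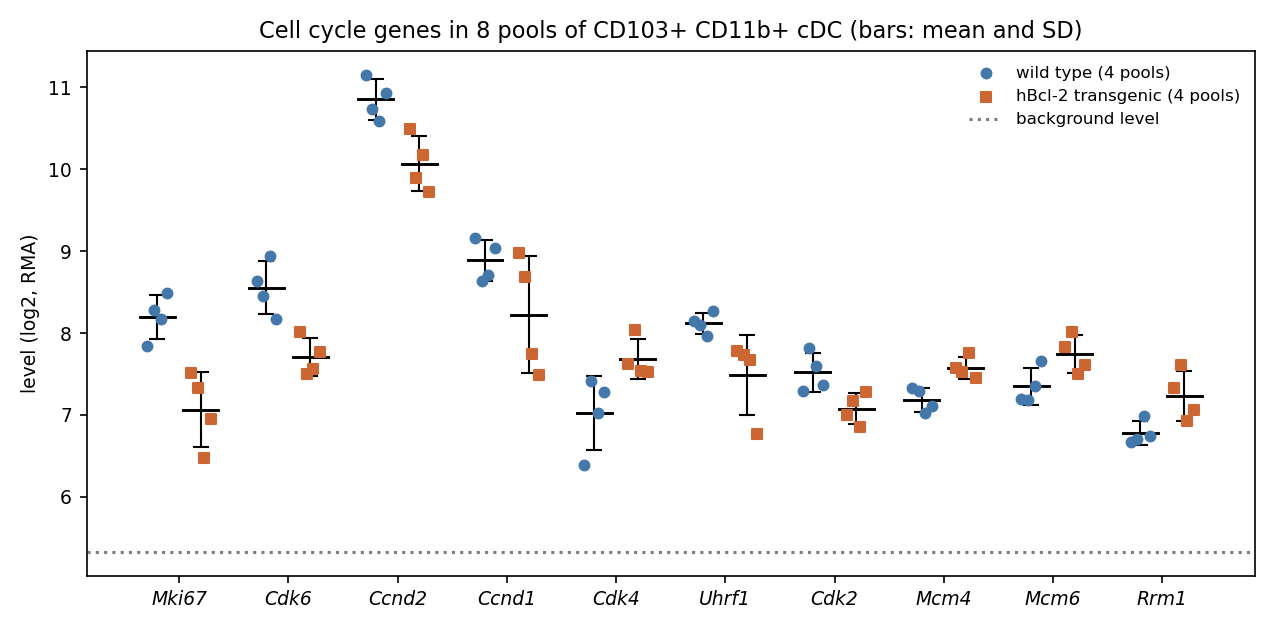
Levels (log2, after RMA) of 10 cell cycle genes on 4 wild-type (circles) and 4 transgenic arrays (squares), with mean and SD as bars and the background level of 5.33 as a dotted line (the axis does not start at 0). Transgenic arrays lie below wild type for Mki67, Cdk6, Ccnd2, Uhrf1 and Cdk2 and above it for Cdk4 and Mcm4, without overlap.

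Groups did not overlap for 7 of the 38 genes, 5 lower and 2 higher in transgenic arrays, against 8.94% of all genes in either direction (4.94% lower and 4.00% higher). Among the S phase genes these were Uhrf1, Cdk2 and Mcm4, none of which passed.

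The S phase genes held small differences in both directions. Uhrf1 encodes a factor that brings the DNA methyltransferase DNMT1 to newly copied DNA. It was at 8.14, 8.10, 7.96 and 8.27 in wild-type and 7.78, 7.73, 7.67 and 6.77 in transgenic arrays. Replicate 4 was by far the lowest, and the other 3 transgenic arrays were also below wild type. The log2 fold of Uhrf1 was -0.63 (SE 0.21; limma adjusted p = 0.197), and -0.39 without transgenic replicate 4. Cdk2, the kinase partner of cyclins E and A, was at 7.29, 7.82, 7.60 and 7.37 in wild-type and 7.00, 7.17, 6.86 and 7.28 in transgenic arrays. The groups of Cdk2 nearly touched, and its log2 fold was -0.44 (SE 0.15; limma adjusted p = 0.192). Ccne1, for cyclin E1, was at 5.40 ± 0.18 and 5.43 ± 0.13 (SD, n = 4), just above background.

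None of the 6 subunits of the MCM helicase passed, and their log2 folds lay on both sides of 0. Mcm4 was at 7.33, 7.29, 7.02 and 7.11 in wild-type and 7.58, 7.52, 7.76 and 7.45 in transgenic arrays, a log2 fold of 0.39 (SE 0.12; limma adjusted p = 0.149). Mcm6, with 3 E2F matches in the window printed above, was at 7.19, 7.18, 7.35 and 7.66 in wild-type and 7.83, 8.02, 7.50 and 7.62 in transgenic arrays, also 0.39 (SE 0.15; limma adjusted p = 0.284). The groups overlapped for Mcm6 and not for Mcm4. Mcm2 had a log2 fold of 0.32 (SE 0.14), Mcm3 of 0.01 (SE 0.19), Mcm7 of -0.10 (SE 0.14) and Mcm5 of -0.21 (SE 0.13). Of the factors that load the helicase, Cdt1 was at 0.02 (SE 0.16), and Cdc6 was dim (4.45 and 4.35).

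Of the genes of nucleotide supply, Rrm1, Rrm2, Tyms and Tk1, none passed. Rrm1, the large subunit of ribonucleotide reductase, was at 6.67, 6.71, 6.99 and 6.75 in wild-type and 7.33, 7.61, 6.92 and 7.06 in transgenic arrays, with a log2 fold of 0.45 (SE 0.16; limma adjusted p = 0.217). Transgenic replicate 3 was the array that overlapped the wild-type range. Its small subunit Rrm2, made mainly in S phase, varied most among the S phase genes. Rrm2 was at 5.22, 4.21, 5.19 and 6.20 in wild-type and 5.45, 6.75, 4.68 and 5.87 in transgenic arrays, so that wild-type replicate 4 and transgenic replicate 2 were the highest of their groups. It had a log2 fold of 0.48 (SE 0.46), and a second, dimmer probe set gave 4.71 and 4.59, a log2 fold of -0.12. Tyms, thymidylate synthase, was at 0.08 (SE 0.14) and Tk1, thymidine kinase, at -0.33 (SE 0.20). Pcna, the sliding clamp of the replication fork, was at 9.77 ± 0.13 and 10.05 ± 0.32 (SD, n = 4), a log2 fold of 0.28 (SE 0.16). The adjusted p of the S phase genes in limma lay between 0.149 (Mcm4) and 0.988 (Mcm3).

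Mki67 had the largest log2 fold of the 17 mitosis genes, although its difference from the others was not tested. Its levels were 7.85, 8.29, 8.17 and 8.49 on the wild-type arrays and 7.51, 7.33, 6.47 and 6.96 on the transgenic arrays. Every transgenic array lay below every wild-type array, replicate 3 the lowest. Its log2 fold was -1.13 (SE 0.22; 95% interval -1.62 to -0.64; limma adjusted p = 0.0350). The other 16 mitosis genes had log2 folds from -0.30 (Cdk1) to 0.29 (Bub1b), and their groups all overlapped.

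Both calls were lost with most single arrays left out, which makes 1 group smaller. Mki67 still passed without transgenic replicate 1, and Cdk6 without wild-type replicate 4 or transgenic replicate 1. Mki67 did not pass without wild-type replicates 1, 2, 3 or 4 or transgenic replicates 2, 3 or 4 (limma adjusted p from 0.0509 to 0.103). Cdk6 did not pass without wild-type replicates 1, 2 or 3 or transgenic replicates 2, 3 or 4 (limma adjusted p from 0.0658 to 0.130). With 1 array left out the log2 fold stayed between -1.28 and -0.93 for Mki67 and between -0.97 and -0.71 for Cdk6.

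Of the mitotic kinases and their partners, Cdk1, the kinase that drives entry into mitosis, was at 5.75 ± 0.05 and 5.45 ± 0.36 (SD, n = 4), with transgenic replicates 1 and 2 at 5.76 and replicates 3 and 4 at 5.19 and 5.10. Its partner Ccna2, cyclin A2, was even on the wild-type arrays (6.33, 6.30, 6.32 and 6.23) and uneven on the transgenic arrays (5.98, 7.23, 5.68 and 5.47). Ccnb2, cyclin B2, was at 5.98, 5.85, 5.73 and 6.80 in wild-type and 6.48, 6.42, 5.63 and 5.61 in transgenic arrays. For Ccna2 and Ccnb2 the differences of -0.20 (SE 0.32) and -0.05 (SE 0.27) were smaller than the spread within the transgenic group. The kinases Aurka and Aurkb, which act at spindle poles and at centromeres, had log2 folds of 0.08 (SE 0.29) and -0.0043 (SE 0.12). Plk1, a kinase of mitotic entry and spindle assembly, was at -0.18 (SE 0.14).

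The spindle checkpoint kinase Bub1 (log2 fold -0.06, SE 0.14) was dim, and Bub1b, for the checkpoint protein BUBR1 (0.29, SE 0.22), and Cdc20, which starts chromosome separation (0.09, SE 0.15), had positive log2 folds that did not pass. Bub1b was at 6.68, 6.72 and 6.79 on transgenic replicates 1 to 3 and at 5.76 on replicate 4. Among motors and spindle proteins, Kif11 was at -0.25 (SE 0.22), Kif20a at -0.15 (SE 0.12), Cenpe at -0.09 (SE 0.10), Tpx2 at -0.21 (SE 0.15) and Nusap1 at 0.21 (SE 0.17). Top2a, the topoisomerase that untangles sister chromosomes, was at 6.81, 6.75, 6.79 and 7.24 in wild-type and 6.58, 7.34, 6.16 and 6.42 in transgenic arrays (log2 fold -0.27, SE 0.23). Birc5, the chromosomal passenger survivin, was dim and was highest on wild-type replicate 4 (5.17) and transgenic replicate 2 (5.44). For the 16 genes other than Mki67 the adjusted p in limma lay between 0.491 (Cdk1) and 0.993 (Aurkb).

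**Figure D4:**
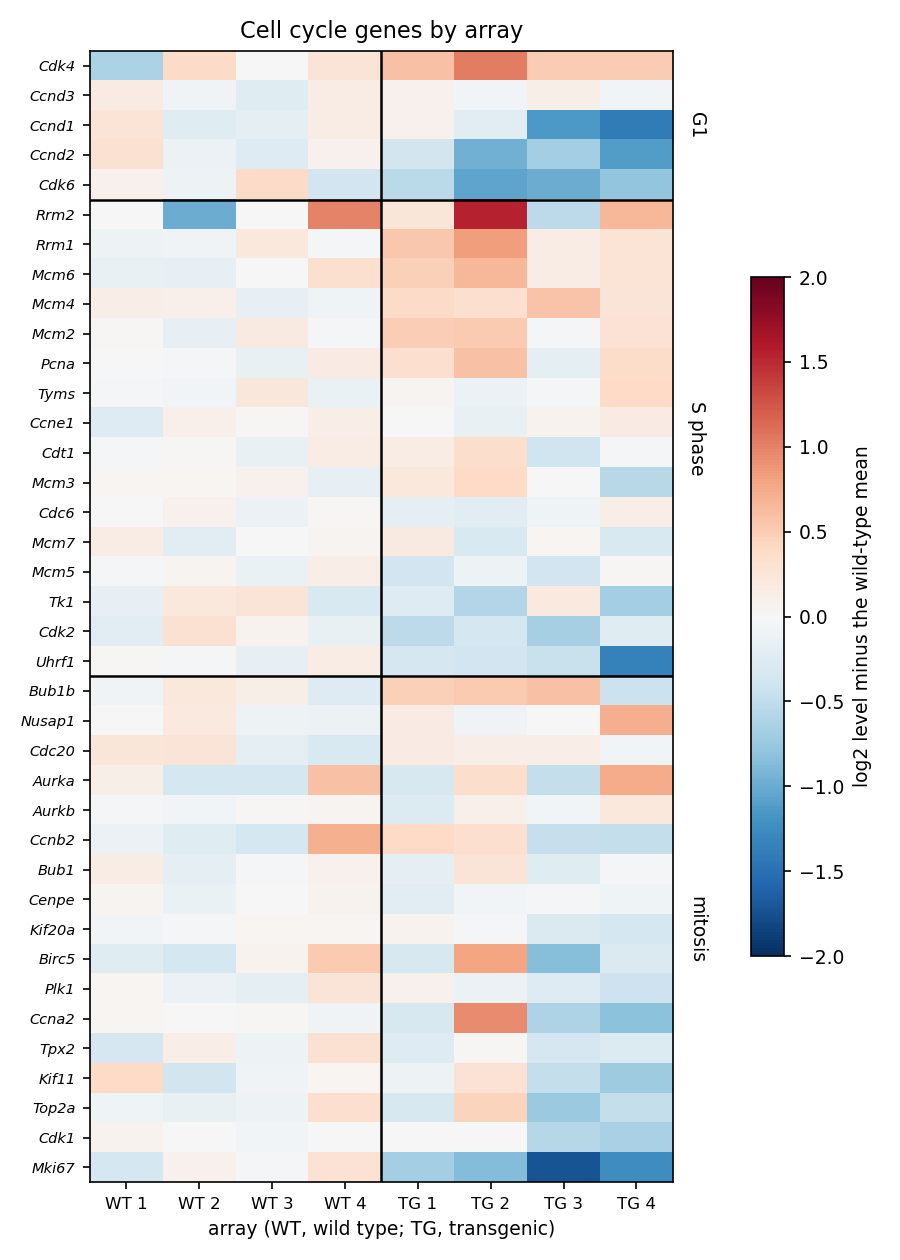
Level of 38 cell cycle genes on each array as the log2 difference from the gene's wild-type mean (red higher, blue lower), with wild-type arrays on the left and transgenic arrays on the right. Mitosis genes on transgenic replicates 3 and 4 are mostly blue (14 of 17 below the wild-type mean on each), and on transgenic replicate 2 mostly red (12 of 17 above). Of all 22180 genes, 11733 and 10274 were below on replicates 3 and 4, and 10364 were above on replicate 2.

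Mitosis genes differed among the transgenic pools. The median deviation of the 17 genes from their wild-type means was -0.19, 0.14, -0.34 and -0.35 on transgenic replicates 1 to 4, and between -0.05 and 0.07 on the wild-type arrays. Transgenic replicate 2 was the highest of its group for 7 of 17 genes and wild-type replicate 4 for 9 of 17. For the 16 S phase genes the same medians were 0.17, 0.11, -0.03 and 0.15, with no array far from the rest. The SD was larger in the transgenic than in the wild-type group for 28 of the 38 genes (73.7%), against 62.1% of all genes.

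The mean level of the S phase genes was highest on the same 2 arrays, each within its group, as were those of several marker lists. These were the lists of macrophages, of T cells, of plasma cells, and of stroma and endothelium. Single genes weighed on some of these means. In the T cell list Cd8b1 was at 7.71 on wild-type replicate 4 and 6.78 on transgenic replicate 2, where Cd3e was at its lowest (5.04). In the stroma list Cxcl13 was at 9.20 on wild-type replicate 4, against 6.60 to 7.13 on the other wild-type arrays. Another list with its highest means on those 2 arrays held markers of natural killer (NK) and innate lymphoid cells. Of 10 such markers, 9 were measured and 7 were above background, 1 rose (Klrd1, limma adjusted p = 0.00644), and the mean level of the 9 ran from 6.28 to 7.45 in wild-type and from 6.70 to 7.84 in transgenic arrays, highest on wild-type replicate 4 and transgenic replicate 2. Ncr1, the NK receptor NKp46, stood at 8.47 and 8.41 on those arrays and at 4.90 to 6.75 on the others, while Klrb1c and Eomes were dim. Single markers differed from the mean, and Klrd1 was highest on wild-type replicate 2 (9.36) and transgenic replicate 4 (11.18). All 8 markers of plasmacytoid dendritic cells were above background, with mean levels of 6.08 to 6.85 and 6.47 to 7.69. Of them Bst2 rose (log2 fold 0.76, limma adjusted p = 0.0204), 7 had a positive log2 fold, and the median was 0.42. Of 8 macrophage markers 4 were above background and Adgre1 alone rose (log2 fold 1.29, limma adjusted p = 0.0128). The median of that list was 0.09, with 5 log2 folds positive and 3 negative. Of 8 monocyte markers 7 were measured, 3 were above background and none passed. Their mean levels were 4.49 to 4.92 and 4.71 to 5.69, highest on transgenic replicate 2. There Ly6c2 stood at 10.38, and its log2 fold was 1.81 (SE 0.77; limma adjusted p = 0.346). The monocyte median was 0.11, with 4 positive and 3 negative. Of 6 cDC1 markers 5 were measured and 4 were above background, with mean levels of 5.61 to 6.39 and 5.13 to 6.81. The means of the plasmacytoid and cDC1 markers were highest among transgenic arrays on replicate 2, and among wild-type arrays on replicates 2 and 3. The part of these cells in the levels of the mitosis genes was not tested. With wild-type replicate 4 and transgenic replicate 2 left out together, chosen after their values were seen, the log2 fold was -1.12 for Mki67 and -0.90 for Cdk6, neither passed with 3 arrays a group (limma adjusted p = 0.132 and 0.0936), and the mitosis median was -0.13.

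Markers of blood progenitors and lymphocytes, which can divide, were measured too. Of 9 markers of blood progenitors, 8 were measured and 5 were dim, among them Cd34, Mpo and Elane. Kit was at 8.70 and 9.63 and rose (log2 fold 0.92, limma adjusted p = 0.0100), and Flt3, which cDC also express, was at 11.11 and 10.74. The mean level of this list was 6.09 to 6.15 in wild-type and 6.10 to 6.23 in transgenic arrays. Of 10 markers of B cells and germinal centres 7 were measured and 6 were above background, none past the threshold, with mean levels of 5.69 to 6.14 and 5.74 to 6.27. Of 10 T cell markers 8 were measured and 3 were dim, with mean levels of 5.05 to 5.57 and 5.14 to 5.34, Cd4 rose (log2 fold 1.18, limma adjusted p = 0.00437), and Cd3e was at 5.71 and 5.41.

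**Figure D5:**
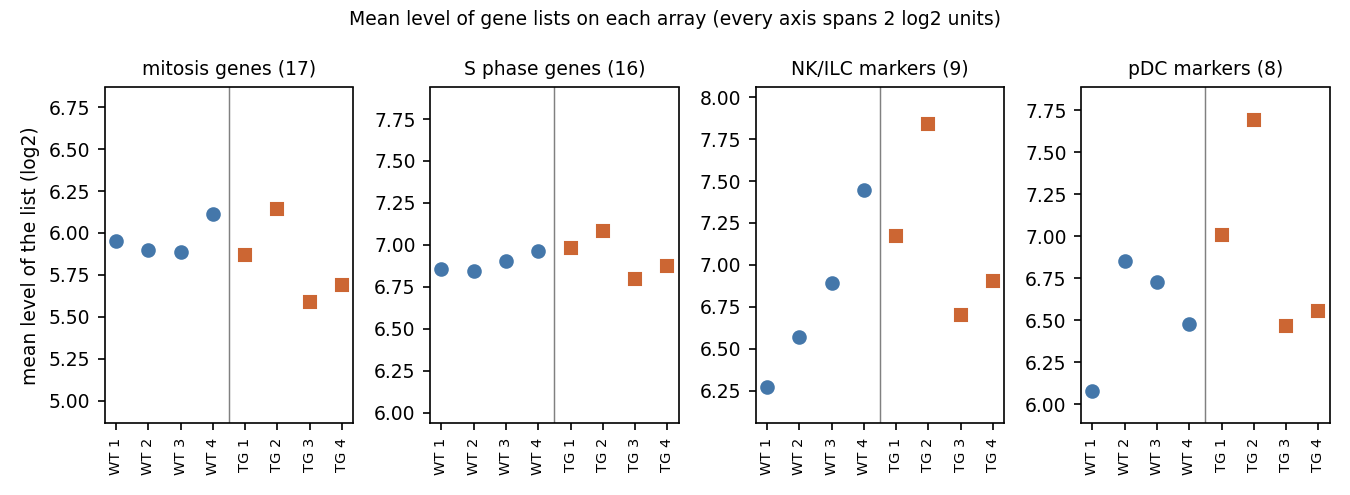
Mean log2 level on each array of the 17 mitosis genes, the 16 S phase genes, 9 NK and innate lymphoid markers and 8 plasmacytoid dendritic cell markers, for wild-type (circles) and transgenic arrays (squares), each axis spanning 2 log2 units. The means of mitosis genes, S phase genes and NK markers are all highest on wild-type replicate 4 and transgenic replicate 2 in their groups.

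Beyond the 38 genes, 163 of 171 other genes of the cell cycle were measured, of which 4 rose, 1 fell and 158 did not pass, against 0.839% and 0.848% of all genes. Their median log2 fold was 0.07. Cenpn, which binds the centromere's histone, fell from 7.88, 7.59, 7.72 and 7.64 to 6.86, 6.35, 6.93 and 6.51, and the groups did not overlap. It had a log2 fold of -1.05 (SE 0.15; limma adjusted p = 0.0101), and passed with each single array left out, but not with wild-type replicate 4 and transgenic replicate 2 left out together. It was the 1 of 42 genes of spindle, kinetochore and cohesion to pass. Ndc80, of the kinetochore, had the highest statistic on that list (log2 fold 1.04, SE 0.28; limma adjusted p = 0.109).

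The 4 genes that rose came from 3 of the lists. Gins3, a subunit of the helicase complex that opens origins, rose from 8.04 ± 0.17 to 8.83 ± 0.28 (SD, n = 4; limma adjusted p = 0.0359), the 1 of 16 genes of origin recognition and firing to pass. Of those 16 genes 15 had a positive log2 fold (median 0.15), against 11020 of 22180 genes in all. Cdc25a, the phosphatase that switches on CDK2, rose from 5.51 ± 0.11 to 6.23 ± 0.17 (SD, n = 4; limma adjusted p = 0.0203), opposite in sign to Cdk2. Atm, the kinase that senses DNA breaks, rose from a dim level of 5.29 ± 0.21 to 6.29 ± 0.35 (SD, n = 4; limma adjusted p = 0.0260), so its fold is uncertain in size. They were 2 of 21 cyclin-CDK regulators and checkpoint kinases, and Ccng2 had the lowest statistic there (log2 fold -0.74, SE 0.20; limma adjusted p = 0.108). Gadd45g, a stress gene that restrains growth, rose from 6.16 ± 0.09 to 7.07 ± 0.30 (SD, n = 4; limma adjusted p = 0.0191) as 1 of 16 genes of quiescence and growth arrest, while Gadd45b was at -0.46 (SE 0.18). Without wild-type replicates 1 or 2 none of these 4 passed, and without wild-type replicate 3 Cdc25a alone of them did. Without wild-type replicate 4 none of the 4 passed and Ndc80 did, and without transgenic replicates 1 or 2 Cdc25a and Gadd45g passed. Without transgenic replicate 3 Gins3 alone of the 4 did not pass.

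No gene passed in the other lists. Of 24 genes of the replication fork and nucleotide supply, Pold2, a subunit of DNA polymerase delta, was highest (log2 fold 0.74, SE 0.18; limma adjusted p = 0.0755) and Dnmt1, the partner of UHRF1, lowest (-0.37, SE 0.21; limma adjusted p = 0.500). Of 21 RB, E2F and MuvB regulators, E2f3 had the highest statistic (log2 fold 0.82, SE 0.26; limma adjusted p = 0.176), although it was dim (4.58 and 5.40). Mybl2, which encodes B-MYB, had the lowest statistic (-0.48, SE 0.14; limma adjusted p = 0.127), and Tfdp1, a partner of E2F factors, the lowest log2 fold (-0.59, SE 0.27; limma adjusted p = 0.396). The 8 CDK inhibitors ran from -0.27 (Cdkn1a) to 0.30 (Cdkn2c), and Cdkn1b, which encodes p27, was at 9.40 ± 0.12 and 9.50 ± 0.27 (SD, n = 4). Of 15 genes of growth signals and MYC, Npm1 had the highest statistic (log2 fold 0.27, SE 0.10) and Ccnl1 the lowest (-0.19, SE 0.12). Myc itself had the largest log2 fold there (0.47, SE 0.22; limma adjusted p = 0.393), and the median was 0.10.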

How the data were processed

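RNA of sorted cells (2.5 ng) was amplified with a whole-transcriptome kit and labelled with biotin, per the labels' protocols. The authors deposited log2 values per probe set; RMA and Partek are named, without versions, in the submitters' processing notes. Because RMA makes array distributions alike, a shift shared by all genes would not be seen, and dim genes have compressed differences. The build is not given in the sources used here. Of 34390 probe sets, 23521 name 1 gene in the platform annotation and were used, 1814 name several and 9055 none. For the 1082 genes with several, the set with the highest mean was used. Transgenic minus wild type was fitted with lmFit and eBayes in limma 3.58.1 (R 4.3.3) over 22180 genes, with no filter, and tested on simulated data. Members and lists were chosen with earlier results of these data known. All members are named; of each pathway list, up to 6 genes past the threshold, or the highest and lowest statistic. Marker genes outside this rule were named with their values known. The number of arrays limits precision. Nothing in the labels says that replicate numbers pair the arrays, so no block was used in the main fit. Correlations of same-numbered deviations were -0.03 to 0.08, which cannot show whether the pools were paired. Figures used matplotlib 3.10.9 (Python 3.11.15).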

Additional observations from a re-analysis of the deposited data

Results flagged for a closer look

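In 82 groups of 4 arrays (38 genes and 3 group means, in wild type and transgenic), 3 held an array set apart from the other 3 by more than Dixon's 95% limit, where chance gives about 5%. Uhrf1 was 6.77 on transgenic replicate 4, against 7.67 to 7.78 on the other transgenic arrays. Bub1b was 5.76 on the same array, against 6.68 to 6.79. Top2a was 7.24 on wild-type replicate 4, against 6.75 to 6.81 on the other wild-type arrays.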

How the results depend on the processing

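No member rose under any of the 19 alternatives, and the log2 folds of Mki67 and Cdk6 were negative under all. The 2 members that fell became 1 (Mki67) when quantile normalization was applied again and 0 without variance moderation or with the replicate number as a block, where limma's adjusted p was 0.0776 for Mki67 and 0.0849 for Cdk6. They became 0 to 3 with an array left out. Ccnd2 joined them with trended and robust moderation, among genes above background, at a threshold of 0.10 and without transgenic replicate 1. The cause was not tested. Over all genes, 186 rose and 188 fell; without variance moderation 16 and 19, with the replicate block 95 and 92, at a threshold of 0.10 354 and 393, with array weights 283 rose, and with an array left out 55 to 216 and 51 to 163. The pathway genes, 4 risen and 1 fallen, were 0 and 0 without variance moderation, 1 risen with the block, and 0 to 5 risen with an array left out. With wild-type replicate 4 and transgenic replicate 2 left out together, added after the data were seen, 0 members fell, 44 genes rose and 29 fell, and 0 and 0 pathway genes passed. The G1 median ran from -0.91 to -0.42 with an array left out. Members near 0 changed sign without passing. Rrm2 was -0.12 on its dimmer probe set, Cdt1 and Mcm3 were -0.018 and -0.028 after quantile normalization again, and Ccne1, Ccnb2 and Aurka were -0.0014, 0.090 and -0.063 with array weights. With those 2 arrays left out, Cdt1, Mcm3, Ccnb2 and Cdc20 were -0.043, -0.17, 0.058 and -0.021. With 1 array left out, log2 folds ran from -0.061 to 0.080 (Ccne1), -0.057 to 0.082 (Ccnd3), -0.14 to 0.27 (Aurka), -0.091 to 0.16 (Cdt1), -0.075 to 0.084 (Aurkb), -0.11 to 0.20 (Mcm3), -0.49 to 0.062 (Birc5), -0.20 to 0.19 (Ccnb2), -0.0061 to 0.18 (Cdc20), -0.16 to 0.0067 (Bub1), -0.029 to 0.15 (Tyms) and -0.59 to 0.0029 (Ccna2). The 4 dim members had no value among genes above background.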
